A study of Homo sapiens with 24 samples.

Results

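Earlier studies named 8 genes as targets of the microRNA miR-186: YY1, AKAP12, FOXO1, XIAP, ROCK1, PTTG1, IGF1R and SKP2. They were taken by symbol, whatever their values, from a table of 58381 genes measured in HaCaT cells, and each matched 1 gene. HaCaT is an immortalized, non-malignant human keratinocyte line. The cells carried hsa-miR-186 or an empty vector and grew with 100 nM or 0 nM iAs (inorganic arsenic). RNA was sequenced at week 29 and week 12 of exposure from 3 libraries per group. The 8 groups were miR-186 clones at 100 nM and at 0 nM in week 29, miR-186 clones at 100 nM and at 0 nM in week 12, and the vector clones at the same doses and weeks. All 24 libraries therefore came from transduced and cloned cells. Each construct was represented by 3 clonal lines, and no clone carried both constructs, so a difference between constructs is also a difference between sets of 3 clones. The labels call the triplicates independent, but do not say which clone carries which replicate number.

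A microRNA guides an Argonaute complex to messenger RNAs by pairing its seed, near its 5′ end, with sites mostly in 3′ untranslated regions (3′ UTRs). Pairing of this kind usually lowers translation and shortens the life of the message. The strongest common site, the 8mer, pairs with the whole seed and has an A opposite the first base. A 7mer site lacks either the outer seed pair (7mer-A1) or that A (7mer-m8), and a 6mer lacks both. The listed genes work at different points of growth control. IGF1R is a receptor tyrosine kinase for insulin-like growth factors, and FOXO1 is a forkhead transcription factor that AKT keeps out of the nucleus when such receptors signal. YY1 is a zinc finger factor that activates or represses many promoters. AKAP12 is a scaffold that anchors protein kinases A and C, ROCK1 is a kinase of actomyosin contraction, and XIAP binds and inhibits caspases. SKP2 is the F-box protein that directs the SCF ubiquitin ligase to the cell cycle inhibitor CDKN1B. PTTG1 is securin, which holds separase inactive until sister chromatids part. It is thus a protein of mitosis itself, and it is described here by its name and not as a gene outside mitosis.

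On the plus strand of GRCh38 the genes include YY1 (ENSG00000100811) at chr14:100238298-100282792, AKAP12 (ENSG00000131016) at chr6:151239999-151358557 and XIAP (ENSG00000101966) at chrX:123859724-123913979. Also on the plus strand are PTTG1 (ENSG00000164611) at chr5:160421822-160428744, IGF1R (ENSG00000140443) at chr15:98648539-98964530 and SKP2 (ENSG00000145604) at chr5:36151989-36184319. On the minus strand are FOXO1 (ENSG00000150907) at chr13:40469953-40666597 and ROCK1 (ENSG00000067900) at chr18:20946906-21111851. All 8 are protein-coding. Seed sites of miR-186-5p were looked for in the longest annotated 3′ UTR of each gene (GENCODE 29, GRCh38, transcript strand only). The letters searched were ATTCTTTA for the 8mer, ATTCTTT for the 7mer-m8, TTCTTTA for the 7mer-A1 and TTCTTT for the 6mer, and each site was counted once, as its longest class. The 8mer was present in 5 of the 8 genes, and a 7mer or 8mer in all 8. Over all 19128 genes with an annotated 3′ UTR, 6.68% held an 8mer, 32.9% a 7mer or 8mer and 44.9% no site of any class, but most of the listed genes have long 3′ UTRs. The windows below, printed 5′ to 3′ along the transcript, are shown because they are the sites through which the listed genes could pair with the overexpressed microRNA: all 8mers, and the best site of each gene without one. Capitals mark the bases that match the seed site.
YY1 8mer, chr14:100277882-100277911, plus strand: atcaaaagacaATTCTTTAtacaacagtgc
YY1 8mer, chr14:100281220-100281249, plus strand: attatttaattATTCTTTAataatccttct
AKAP12 8mer, chr6:151356034-151356063, plus strand: actggagtatcATTCTTTAcatatttatat
AKAP12 8mer, chr6:151356257-151356286, plus strand: atcaaggtacaATTCTTTAaaattcactaa
FOXO1 7mer-m8, chr13:40557703-40557732, minus strand: ttcccctcataATTCTTTgctcttgtttca
XIAP 8mer, chrX:123913948-123913977, plus strand: aataaaatactATTCTTTAaaattatatca
ROCK1 7mer-m8, chr18:20947509-20947538, minus strand: taatcacaattATTCTTTgtttttataatg
PTTG1 8mer, chr5:160428716-160428744, plus strand: attaataaagcATTCTTTAacagattctt
IGF1R 8mer, chr15:98964386-98964415, plus strand: atatactctggATTCTTTAcataatggaaa
SKP2 7mer-A1, chr5:36182046-36182075, plus strand: gatggtgtctcTTCTTTAgaacagggaaaa

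**Figure D1:**
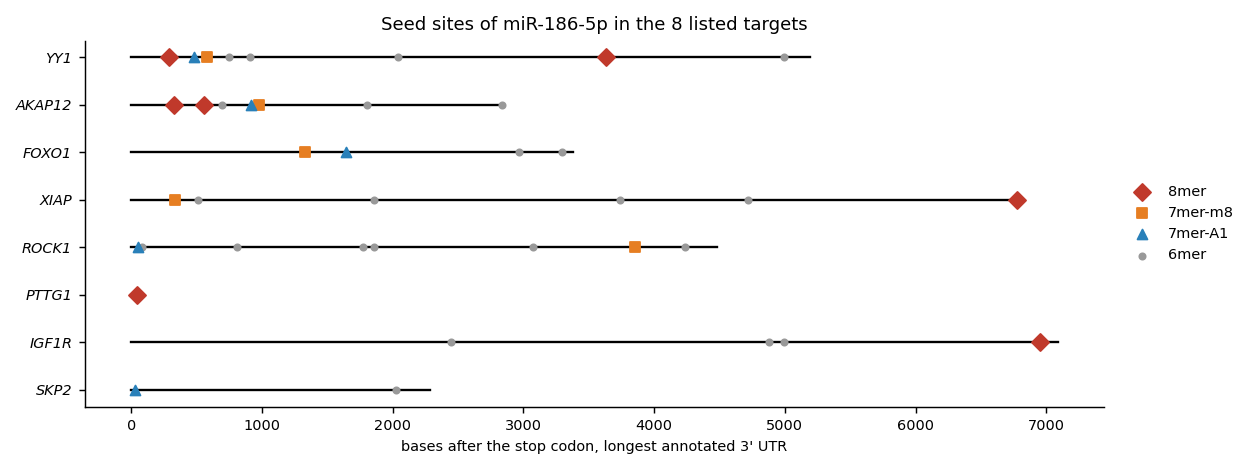
Positions of seed sites of miR-186-5p along the longest annotated 3′ UTR of each gene (x axis: bases after the stop codon; black line: the 3′ UTR). YY1 and AKAP12 each hold 2 8mers, the 8mers of XIAP and IGF1R lie near the end of their 3′ UTRs, and the 3′ UTR of PTTG1 is 63 bases long with 1 site, an 8mer.

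YY1 held 2 8mers, 1 site of each 7mer class and 5 6mers in 5192 bases, and AKAP12 held 2 8mers, 1 site of each 7mer class and 3 6mers in 2843 bases. Among 3′ UTRs within 25% of the same length, 19.7% held an 8mer for YY1 and 11.1% for AKAP12. XIAP had 1 8mer and 1 7mer-m8 in 6798 bases, with the 8mer 13 bases before the annotated end. IGF1R had 1 8mer and no 7mer in 7088 bases, 126 bases before the end. An 8mer was present in 27.6% of 3′ UTRs of lengths like that of XIAP and in 28.6% of those like that of IGF1R. PTTG1 had an 8mer starting at base 46 of a 63-base 3′ UTR, where 0.623% of the 321 3′ UTRs of similar length held one. FOXO1 and ROCK1 each had 1 7mer-m8 and 1 7mer-A1 and no 8mer, and SKP2 had 1 7mer-A1. A 7mer or 8mer was common among 3′ UTRs of similar length, except for PTTG1 (0.935%). The share was 86.9% for IGF1R, 86.0% for XIAP, 77.7% for YY1 and 73.1% for ROCK1. It was 62.9% for FOXO1, 57.4% for AKAP12 and 49.5% for SKP2.

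The mature microRNA was not measured in these libraries. The gene MIR186 was listed at 0 in all 24, and its host gene ZRANB2 ran from 19.9 to 65.3 FPKM (fragments per kilobase of transcript, scaled to the library's total). Keratinocyte markers held for the labelled line: 8 of 8 averaged at least 1 FPKM, with a summed level of 1279 to 5908 FPKM per library. Of the markers of other cells, 2 of 5 for fibroblasts (COL1A1 and LUM), 1 of 4 for endothelium (CDH5), 1 of 4 for melanocytes (PMEL) and 0 of 4 for leukocytes averaged that much. The summed level of 5 fibroblast markers was 1.32 to 17.6 FPKM, that of 4 endothelial markers 4.04 to 20.9 FPKM, that of 4 melanocyte markers 0.731 to 2.37 FPKM with TYR at 0 throughout, and that of 4 leukocyte markers 0.240 to 0.914 FPKM. Libraries summed to 712797 to 905683 FPKM, and 13803 to 14588 genes reached 0.5 FPKM. Absolute read depth is unknown from these values. The trend of a library's values with gene GC content varied, from a mean slope of −0.27 log2 units per 10 points of GC in miR-186 clones at 0 nM in week 29 to 0.29 in vector clones at 100 nM in week 12.

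All 8 genes were listed above 0 in all 24 libraries, with mean levels between the 7.70 and 90.2 percentiles of the tested genes. The group means of AKAP12 in vector clones were all under 0.5 FPKM, from 0.114 to 0.430 FPKM. On the FPKM scale, which is per transcript length, PTTG1 averaged 72.5 and YY1 69.4 over the 24 libraries, ROCK1 27.6, IGF1R 21.5, SKP2 15.5, XIAP 8.82, FOXO1 8.51 and AKAP12 0.866. PTTG1 and YY1 stood at the 90.2 and 89.6 percentiles of the 14228 genes tested, and AKAP12 at the 7.70 percentile. AKAP12 passed the filter of a mean of 0.5 FPKM only through its miR-186 libraries, so its place among the tested genes is not independent of its level there. Related copies that could share reads were low: PTTG2, PTTG3P and ROCK1P1 were listed at 0 in 22, 23 and 19 of 24 libraries, FOXO1B and BIRC8 were listed at 0 in all 24, and YY2 and FOXO3B averaged 0.381 and 0.714 FPKM. When the 8 group means of a gene were put in order, groups next to each other overlapped in their libraries in 7 of 7 pairs for FOXO1, XIAP, ROCK1, PTTG1, IGF1R and SKP2, and in 6 of 7 for YY1 and AKAP12.

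**Figure D2:**
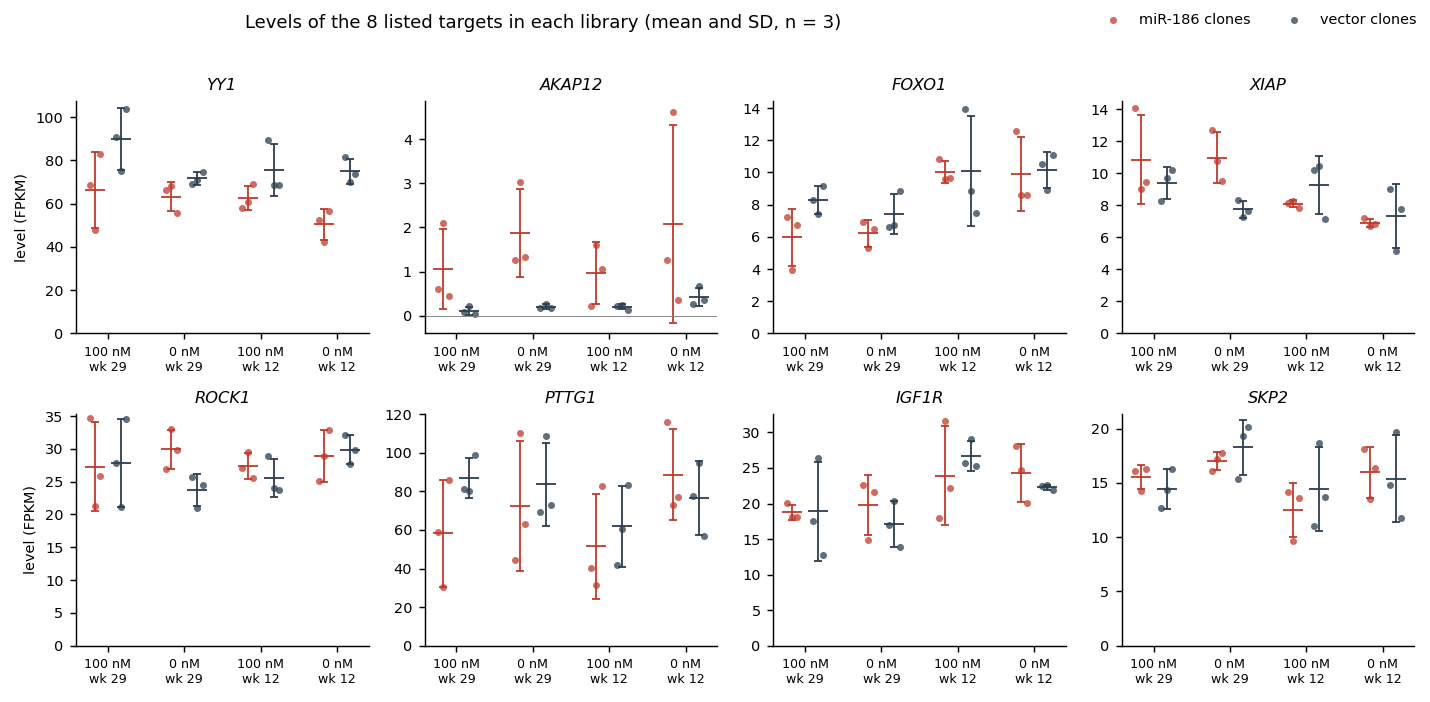
Level of each gene in every library (y axis: FPKM, from 0) by iAs dose and week, with miR-186 clones in red left of vector clones in dark blue; the dash and bar are the mean and SD of 3 libraries. The mean of AKAP12 is above and that of YY1 below the vector mean in miR-186 clones at every dose and week, and all miR-186 libraries of FOXO1 are lower in week 29 (3.94 to 7.22 FPKM) than in week 12 (8.58 to 12.6 FPKM).

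The comparison of miR-186 with vector clones asks whether the listed genes fall when the microRNA is overexpressed. No listed gene passed the test between constructs at any dose or week. Of 32 values, 8 genes in 4 comparisons, 15 were above 0 and 17 below, and 7 had an unadjusted p under 0.05. The smallest adjusted p was 0.0701 (limma on log2(FPKM + 0.5), all 8 groups in 1 fit, Benjamini-Hochberg over 14228 genes, threshold 0.05). AKAP12, which passed the filter only through its miR-186 libraries, gave this value and 3 of the 7 unadjusted ones. Over all genes, limma called 0.864% between constructs at 100 nM in week 29, 2.86% at 0 nM in week 29, 2.02% at 100 nM in week 12 and 3.44% at 0 nM in week 12. At an unadjusted p under 0.05 the shares of all genes were 14.5%, 19.9%, 14.5% and 20.1% in the same order, and the listed genes counted 3, 2, 0 and 2 of 8. The median log2 change of the 8 genes was 0.01, 0.05, −0.18 and 0.01, against 0.00, 0.02, −0.04 and −0.03 over all genes tested. The 4 comparisons use different libraries, but the same 3 clones of each construct may recur at every dose and week.

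**Figure D3:**
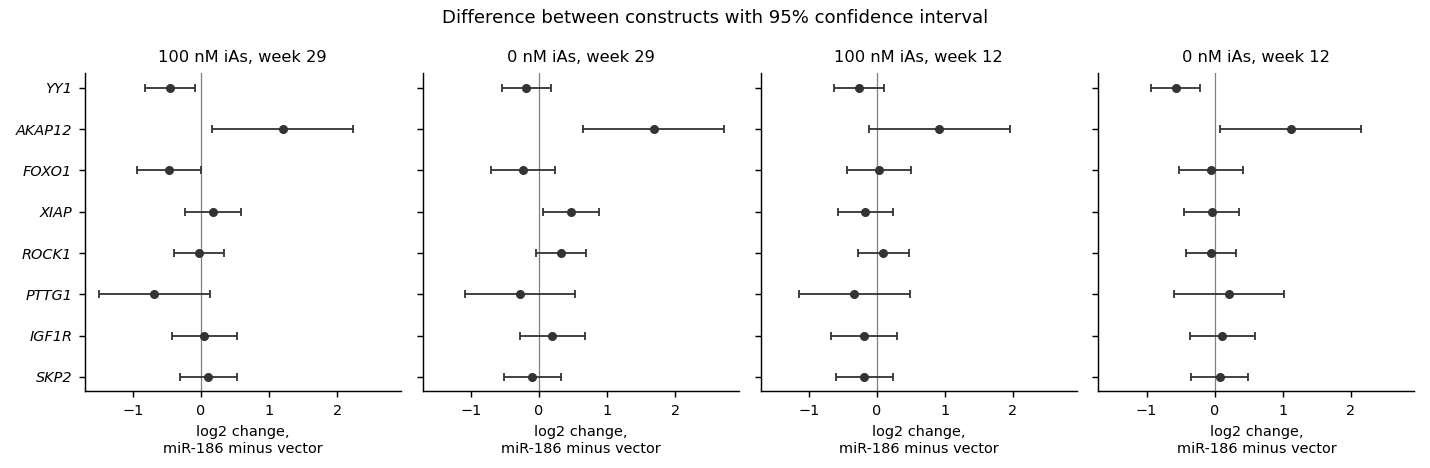
Log2 change of each gene between constructs (x axis: miR-186 minus vector clones, log2(FPKM + 0.5); point and bar: estimate and 95% confidence interval from limma). AKAP12 lies right of 0 and YY1 left of 0 in all 4 panels, and no gene passed the threshold after adjustment.

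AKAP12, with 2 8mers, was the gene farthest from 0, and it lay on the higher side in miR-186 clones. In week 29 at 100 nM it had 0.617, 2.10 and 0.445 FPKM in miR-186 clones, against 0.0923, 0.217 and 0.0340 FPKM in vector clones. At 0 nM in week 29 it had 1.26, 3.02 and 1.34 FPKM in miR-186 clones, against 0.172, 0.265 and 0.169 FPKM in vector clones. The libraries of the 2 constructs did not overlap at either dose in week 29, where 8.61% of all genes tested at 100 nM and 15.9% at 0 nM were higher without overlap. In week 12 at 100 nM the levels were 0.212, 1.61 and 1.07 FPKM in miR-186 clones, against 0.233, 0.247 and 0.136 FPKM in vector clones. At 0 nM in week 12 they were 1.27, 4.62 and 0.362 FPKM in miR-186 clones, against 0.259, 0.665 and 0.366 FPKM in vector clones. Both week 12 comparisons overlapped, through the lowest miR-186 library of each. Of the 12 miR-186 libraries, 8 were above every vector library, with doses and weeks pooled and clones possibly shared. How many of all genes had such a count was not computed.

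The log2 change of AKAP12 was 1.20 at 100 nM in week 29 (limma adjusted p = 0.260), 1.68 at 0 nM in week 29 (adjusted p = 0.0701), 0.92 at 100 nM in week 12 (adjusted p = 0.411) and 1.12 at 0 nM in week 12 (adjusted p = 0.217), each with an SE of 0.497. Since AKAP12 passed the filter only through its miR-186 libraries, these values are a description and carry no call in that direction. Without a filter the adjusted p in week 29 was 0.443 at 100 nM and 0.143 at 0 nM. With the replicate number as a block, it was 0.0163 at 0 nM in week 29, under the same reservation. The block was fitted over all 24 libraries. The pairing check passed in this comparison but not in most others, and no clone carried both constructs. The size depended on the pseudocount: in week 29 the log2 change was 2.24 at 100 nM and 2.61 at 0 nM with a pseudocount of 0.1, and 0.80 and 1.21 at the same doses with a pseudocount of 1. Replicate 2 was the highest AKAP12 library in 8 of 8 groups, so the libraries of this number stood above the others for both constructs. Leaving out 1 library at a time moved the change at 0 nM in week 12 between 0.43 and 1.72 and at 100 nM in week 29 between 0.75 and 1.48. The lowest values came without miR-186 replicate 2, and the change stayed above 0 throughout. The 20 genes tested nearest to AKAP12 on chromosome 6 had median changes of 0.14, 0.38, 0.20 and −0.05 in the same order of comparisons. Across the 24 libraries, which may share clones, AKAP12 was most like NSUN6 (r = 0.862) and GSTM3 (r = 0.860) of all genes tested.

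YY1, also with 2 8mers, had a log2 change below 0 in miR-186 clones at every dose and week, but none passed. At 0 nM in week 12 it had 52.4, 42.4 and 56.6 FPKM in miR-186 clones, against 81.5, 70.0 and 73.5 FPKM in vector clones. At 100 nM in week 12 it had 58.0, 60.8 and 68.9 FPKM in miR-186 clones, against 89.7, 68.6 and 68.7 FPKM in vector clones. At 0 nM in week 29 it had 66.1, 68.0 and 55.5 FPKM in miR-186 clones, against 69.2, 70.9 and 74.8 FPKM in vector clones. At 100 nM in week 29 it had 68.5, 48.0 and 82.9 FPKM in miR-186 clones, against 91.0, 75.2 and 103.7 FPKM in vector clones. Both comparisons at 0 nM were free of overlap, as were 15.1% of all genes on the lower side in week 12 and 12.1% in week 29. Of the 12 miR-186 libraries, 10 were below every vector library, with doses and weeks pooled and clones possibly shared. The share of all genes with such a count was not computed. The log2 change was −0.46 at 100 nM in week 29 (limma adjusted p = 0.220), −0.18 at 0 nM in week 29 (adjusted p = 0.583), −0.26 at 100 nM in week 12 (adjusted p = 0.520) and −0.58 at 0 nM in week 12 (adjusted p = 0.0713), each with an SE of 0.175. Leaving out 1 library moved the change at 100 nM in week 29 between −0.63 (without miR-186 replicate 3) and −0.24 (without miR-186 replicate 2).

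The genes around YY1 on chromosome 14 lay on the same side. Of the 20 tested genes nearest to YY1, 10 on each side between positions 96392111 and 102056443, 17 were lower in miR-186 clones at 100 nM in week 29, 18 at 0 nM in week 29, 16 at 100 nM in week 12 and 16 at 0 nM in week 12. Their median log2 changes were −0.41, −0.55, −0.51 and −0.52, and YY1 was closer to 0 than this median at 0 nM in week 29 and at 100 nM in week 12 and slightly farther from 0 in the other 2. With the GC correction and each 20 Mb window of the genome centred on its own median, the change of YY1 was −0.04, 0.16, 0.22 and −0.13 in the same order, so its direction turned in 2 comparisons (adjusted p from 0.496 to 0.948). ALKBH1, a demethylase gene also on chromosome 14, was the gene most like YY1 over the 24 libraries (r = 0.840), before GORASP2 (r = 0.809). YY1 and AKAP12 ran opposite to each other over the 24 libraries (r = −0.717), the strongest correlation between any of the 28 pairs of listed genes, with both constructs pooled.

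**Figure D4:**
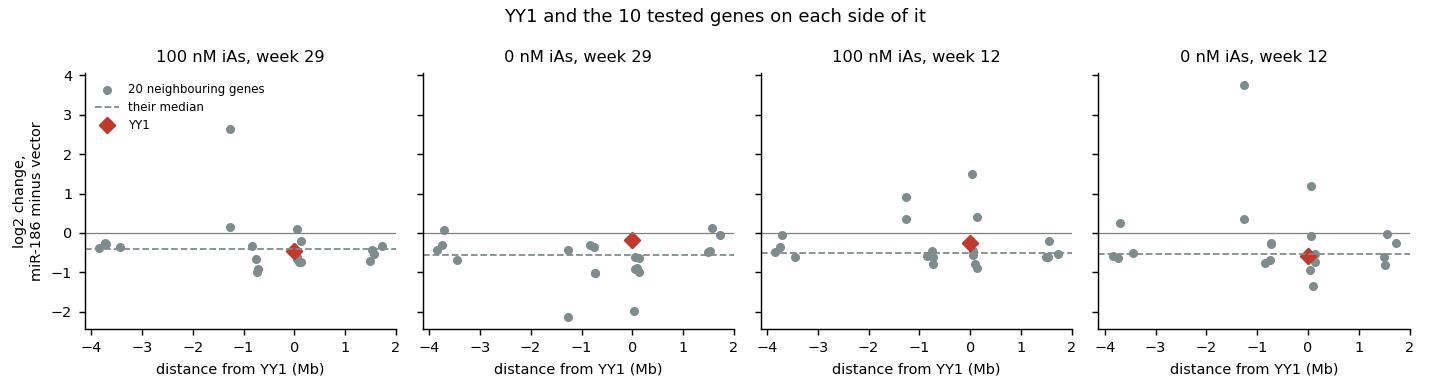
Log2 change between constructs (y axis: miR-186 minus vector clones) of YY1 (red diamond) and of the 10 tested genes on each side of it (grey points; dashed line: their median), by distance from YY1 in megabases. The median of the neighbours is below 0 in all 4 panels, from −0.41 to −0.55, and YY1 lies near or above it.

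ROCK1, IGF1R and SKP2 were the steadiest of the listed genes between constructs. ROCK1 ran from 21.3 to 34.7 FPKM in miR-186 clones (median 27.9) and from 21.0 to 34.6 FPKM in vector clones (median 26.7), and its log2 changes lay between −0.05 and 0.33. At 0 nM in week 29 its libraries did not overlap, with 26.9, 33.0 and 29.9 FPKM in miR-186 clones, against 25.7, 21.0 and 24.5 FPKM in vector clones. There 15.9% of all genes were higher without overlap, and the smallest limma adjusted p of ROCK1 between constructs was 0.309. IGF1R ran from 14.9 to 31.7 FPKM in miR-186 clones (median 20.9) and from 12.7 to 29.1 FPKM in vector clones (median 22.1), with log2 changes between −0.19 and 0.20. SKP2 ran from 9.68 to 18.1 FPKM in miR-186 clones (median 16.1) and from 10.99 to 20.2 FPKM in vector clones (median 15.1), with log2 changes between −0.19 and 0.11. The 95% confidence intervals of all 4 comparisons together reached from −0.42 to 0.70 for ROCK1, from −0.67 to 0.68 for IGF1R and from −0.60 to 0.53 for SKP2. Falls beyond those bounds lie outside the intervals of all 4 comparisons. The smallest fall that 3 clones a construct could show was not computed. ROCK1 was most like TRAPPC8 (r = 0.792) and TRIM38 (r = 0.771), IGF1R most like NLRP1 (r = 0.831) and MICAL3 (r = 0.813), and SKP2 most like GLOD4 (r = 0.871) and NUBPL (r = 0.821).

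PTTG1, with the 8mer in the short 3′ UTR, had a wide spread within groups. It ran from 30.4 to 115.8 FPKM in miR-186 clones (median 68.1) and from 41.6 to 108.6 FPKM in vector clones (median 79.1). The SD of 3 libraries was 12.0% to 52.9% of the group mean. At 100 nM in week 29, where the constructs were farthest apart, it had 58.9, 30.4 and 85.9 FPKM in miR-186 clones, against 81.4, 80.4 and 98.9 FPKM in vector clones, and the groups overlapped. The log2 change there was −0.68 with an SE of 0.389 (limma adjusted p = 0.426), and the other 3 lay between −0.33 and 0.21. It was −1.02 without miR-186 replicate 3 and −0.28 without miR-186 replicate 2. The gene most like PTTG1 over the 24 libraries was CDK1, the kinase that drives entry into mitosis (r = 0.965), followed by DEPDC1B (r = 0.941). Among the listed genes it was most like SKP2 (r = 0.558).

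FOXO1 and XIAP had log2 changes between −0.17 and 0.04 between constructs in week 12, and XIAP was farthest from 0 in week 29 at 0 nM. There XIAP had 12.7, 10.8 and 9.51 FPKM in miR-186 clones, against 8.33, 7.25 and 7.67 FPKM in vector clones, a log2 change of 0.47 with an SE of 0.195 (limma adjusted p = 0.183). FOXO1 in week 29 at 100 nM had 7.22, 3.94 and 6.76 FPKM in miR-186 clones, against 8.27, 7.39 and 9.14 FPKM in vector clones, a log2 change of −0.47 with an SE of 0.225 (adjusted p = 0.337). Neither pair of groups overlapped in FPKM, as was the case on the higher side for 15.9% of all genes tested at 0 nM and on the lower side for 6.8% at 100 nM, and neither change passed. After the GC correction the XIAP libraries did overlap, at 3.61, 3.24 and 3.10 log2 units in miR-186 clones, against 3.24, 2.93 and 2.86 in vector clones. The change of XIAP ran from 0.21 to 0.49 over the alternatives that kept every library. The change of FOXO1 was −0.22 without miR-186 replicate 2 and −0.62 without miR-186 replicate 1.

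Seed sites were also set against the construct changes of all tested genes, as a description. The median log2 change of the 939 tested genes with an 8mer was 0.06 at 100 nM in week 29, 0.15 at 0 nM in week 29, −0.01 at 100 nM in week 12 and −0.11 at 0 nM in week 12. The median of the 4678 genes without any site was −0.11, −0.12, −0.10 and 0.04 in the same order. The sign of this gap was therefore not the same in every comparison. The 2 sets also differed in GC content, with medians of 41.0% for genes with an 8mer and 54.7% for genes without a site. After the GC correction the medians lay between −0.01 and 0.03 for genes with an 8mer and between −0.02 and 0.02 for genes without a site.

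Week 29 against week 12 held the only call among the listed genes. FOXO1 fell in miR-186 clones at 100 nM, with a log2 change of −0.74 and an SE of 0.225 (limma adjusted p = 0.0400). It had 7.22, 3.94 and 6.76 FPKM in week 29, against 10.8, 9.57 and 9.68 FPKM in week 12. At 0 nM it had 6.93, 5.29 and 6.47 FPKM in week 29, against 12.6, 8.59 and 8.58 FPKM in week 12 (log2 change −0.62, adjusted p = 0.113). All 6 miR-186 libraries of week 29 were below all 6 of week 12, as for 3.57% of all genes. Within 1 dose, 14.9% of all genes at 100 nM and 14.2% at 0 nM were lower without overlap. Limma called 12.2% of all genes between weeks in miR-186 clones at 100 nM, and 1 of 8 listed genes is close to that share; it called 2.90% at 0 nM.

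The call of FOXO1 was thin. It was lost without any 1 of the 6 libraries (log2 change −0.89 to −0.49, adjusted p from 0.0586 to 0.141), without a filter on low values (adjusted p = 0.0826) and in a fit on those 2 groups alone, where the change was also −0.74 (adjusted p = 0.131). It was kept with the replicate block (adjusted p = 0.0130) and with the GC correction (log2 change −0.85, adjusted p = 0.0243). In vector clones the log2 change was −0.23 at 100 nM (8.27, 7.39 and 9.14 FPKM in week 29, against 13.9, 8.86 and 7.45 FPKM in week 12; adjusted p = 0.629). In vector clones the week comparison called 0.183% of all genes at 100 nM and 0.907% at 0 nM. At 0 nM the change was −0.44 (6.62, 6.76 and 8.82 FPKM in week 29, against 10.5, 8.89 and 11.1 FPKM in week 12; adjusted p = 0.575). The week effects of the constructs differed by −0.51 ± 0.319 (SE) at 100 nM and −0.18 ± 0.319 (SE) at 0 nM, and neither difference passed (limma adjusted p = 1.00 and 0.796). The 20 tested neighbours of FOXO1 on chromosome 13 had medians of 0.23 and 0.14 between weeks in miR-186 clones at 100 nM and 0 nM. Over the 24 libraries FOXO1 was most like SOS2 (r = 0.859) and CHSY1 (r = 0.843).

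XIAP was on the opposite side between weeks in miR-186 clones. At 0 nM it had 12.7, 10.8 and 9.51 FPKM in week 29, against 7.21, 6.71 and 6.81 FPKM in week 12 (log2 change 0.62, SE 0.195, limma adjusted p = 0.0770). At 100 nM it had 14.05, 9.02 and 9.46 FPKM in week 29, against 8.12, 8.29 and 7.85 FPKM in week 12 (log2 change 0.37, adjusted p = 0.190). All 6 libraries of week 29 were above all 6 of week 12, as for 5.55% of all genes, but neither comparison passed. Within 1 dose, on the higher side, 18% of all genes at 100 nM and 16.6% at 0 nM had no overlap. With the GC correction the changes were 0.38 at 0 nM and 0.06 at 100 nM, and XIAP is a gene of low GC content (39.0%). In vector clones the changes were 0.03 at 100 nM and 0.11 at 0 nM. XIAP was most like NCOR1 (r = 0.788) and AL591684.2 (r = 0.777). IGF1R was lower in week 29 in all 4 week comparisons, with log2 changes between −0.54 and −0.30, and none passed (smallest adjusted p = 0.294). The other 5 genes were on both sides of 0 between weeks, except SKP2, whose changes lay between 0.03 and 0.32 (smallest adjusted p = 0.276).

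Exposure to 100 nM iAs against 0 nM moved none of the 8 genes past the threshold in either construct or week. Limma called no gene at all for iAs in miR-186 clones in either week or in vector clones in week 29, and 1.38% of genes in vector clones in week 12. At an unadjusted p under 0.05 the shares were 2.19% and 11% of genes in miR-186 clones in weeks 29 and 12, and 3.9% and 29.3% in vector clones in weeks 29 and 12. PTTG1 in miR-186 clones in week 12 was the 1 listed value of 32 with an unadjusted p under 0.05, at 40.3, 31.7 and 82.6 FPKM with 100 nM, against 115.8, 73.0 and 77.3 FPKM with 0 nM. Those groups overlapped, and the log2 change was −0.87 with an SE of 0.389 (adjusted p = 0.423). The change of AKAP12 was below 0 in all 4 iAs comparisons, between −0.69 and −0.20 with adjusted p of 0.642 or more. That of SKP2 was also below 0 in all 4, between −0.35 and −0.09 with adjusted p of 0.536 or more. Differences between effects, by construct, dose or week, gave 48 values for the listed genes, none past the threshold and none with an unadjusted p under 0.05 (limma, smallest adjusted p = 0.389). Limma called no gene of the 14228 in any of those 6 comparisons.

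The pathways in which the listed genes act were followed through fixed lists. In the IGF1R list, 20 of 24 genes were tested. Between constructs GRB10, an adaptor that binds the receptor, rose at 100 nM in week 12 (8.02 FPKM in miR-186 clones, 1.64 FPKM in vector clones; log2 change 2.04, limma adjusted p = 0.0412). IGFBP7, a secreted binding protein, fell at 0 nM in week 12 (73.3 FPKM in miR-186 clones, 135.7 FPKM in vector clones; log2 change −0.87, adjusted p = 0.0257). No other gene of that list passed between constructs, where limma called 2.02% of all genes at 100 nM and 3.44% at 0 nM in week 12. Its median log2 change over the 4 comparisons lay between −0.11 and −0.02. Between weeks in miR-186 clones at 100 nM, AKT1, IGFBP4 and IRS1 fell, and none of the 20 rose, in a comparison in which 5.07% of all genes fell and 7.11% rose. These 3 genes were named after their values were seen.

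Of 18 tested FOXO factors and FOXO target genes, 1 passed between constructs, at 0 nM in week 29, where limma called 2.86% of all genes. KLF6, a zinc finger factor, rose at 0 nM in week 29 (56.6 FPKM in miR-186 clones, 34.1 FPKM in vector clones; log2 change 0.71, limma adjusted p = 0.0157). Between weeks the list held both directions, and the following genes were chosen after their values were seen. KLF6 was lower in week 29 than in week 12 in all 4 comparisons, past the threshold in each, by 1.62 to 2.02 on the log2 scale. The cell cycle inhibitor CDKN1B, a FOXO target and an SKP2 substrate, rose in miR-186 clones at 100 nM (15.7 FPKM in week 29, 8.72 FPKM in week 12; adjusted p = 0.0199) and at 0 nM (15.99 FPKM in week 29, 8.97 FPKM in week 12; adjusted p = 0.0384). CDKN1A, on the SCF-SKP2 list and not on this one, fell in both of these comparisons. CITED2 fell at 100 nM (41.4 FPKM in week 29, 84.3 FPKM in week 12), and the proapoptotic gene BCL2L11 fell at 0 nM (5.21 FPKM in week 29, 9.55 FPKM in week 12). In total 1 of 18 rose and 2 fell in miR-186 clones at each dose, where limma called 12.2% of all genes at 100 nM, near the share of the list, and 2.90% at 0 nM.

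None of 19 tested genes of the SCF-SKP2 list, 16 of the separase and cohesin list and 14 of the IAP and caspase list passed between constructs. In the SCF-SKP2 list the median log2 change lay between −0.41 and −0.06 over the 4 comparisons, and the cyclin genes CCNF and CCNA2 had log2 changes of −1.36 and −1.20 at 100 nM in week 29 (limma adjusted p = 0.103 and 0.209). For separase and its partners the values of smallest p at 100 nM in week 29 were CDCA5 at −1.03 and ESPL1, separase itself, at −1.11 (adjusted p = 0.164 and 0.211). At 0 nM in week 29 they were on the higher side, SMC3 at 0.50 and WAPL at 0.44 (adjusted p = 0.0666 and 0.108). The median log2 change of that list lay between −0.16 and 0.15 over the 4 comparisons. In the IAP list BIRC5, or survivin, had −1.18 at 100 nM in week 29 (adjusted p = 0.211), and DIABLO, which displaces XIAP from caspases, had −0.39 at 0 nM in week 12 (adjusted p = 0.0896). Between weeks in miR-186 clones at 100 nM, 5 of the 16 genes of the separase and cohesin list rose (SMC3, STAG1, STAG2, ESCO1 and PDS5A, named after their values were seen) and none fell, against 7.11% of all genes that rose. The median log2 change of the list there was 0.28, with 7 of 16 genes at an unadjusted limma p under 0.05. In vector clones at 100 nM the median was 0.42 with 8 of 16, and none passed where limma called 0.183% of all genes. The lean to higher values at 100 nM was thus not particular to miR-186 clones. At 0 nM the median between weeks was 0.11 in miR-186 clones and 0.03 in vector clones. For 100 nM against 0 nM iAs in week 12 it was −0.34 and −0.29 in the same order. Between week 12 and week 29 at 100 nM the mean GC slope went from 0.23 to −0.14 in miR-186 clones and from 0.29 to 0.04 in vector clones. Its bearing on this list was not tested. DIABLO rose between weeks in miR-186 clones at 100 nM (70.3 FPKM in week 29, 46.5 FPKM in week 12; adjusted p = 0.0115).

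In the A-kinase anchoring list, 18 genes were tested, and AKAP9 passed on the higher side at 0 nM in week 29, where 2.86% of all genes were called. AKAP9, a scaffold of the Golgi and centrosome, had 17.8 FPKM in miR-186 clones and 9.84 FPKM in vector clones (adjusted p = 0.0299). AKAP7 had 2.06 FPKM in miR-186 clones and 0.1499 FPKM in vector clones (limma adjusted p = 0.0422). It reached the filter only through its miR-186 libraries, so it too is a description and is not counted. In the YY1 list, with 21 tested genes, ZFP42, a zinc finger factor related to YY1, passed the filter only through its vector libraries, so its values are a description. It had 0.0531 to 0.164 FPKM as group means in miR-186 clones and 4.40 to 8.62 FPKM in vector clones (log2 changes −3.77 to −2.91). INO80, the ATPase of a remodelling complex that contains YY1, rose at 0 nM in week 29 (41.7 FPKM in miR-186 clones, 28.03 FPKM in vector clones; adjusted p = 0.0269). KAT2A, an acetyltransferase, rose at 0 nM in week 12 (19.3 FPKM in miR-186 clones, 7.84 FPKM in vector clones; limma adjusted p = 0.0180), where 3.44% of all genes were called. At 100 nM in week 12 it had 29.2 FPKM in miR-186 clones and 17.8 FPKM in vector clones, and did not pass. In vector clones KAT2A also rose with iAs in week 12 (limma adjusted p = 0.0483).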

How the data were processed

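RNA of 24 HaCaT libraries was sequenced, paired-end and in 1 pool, from stranded mRNA libraries, per the labels' protocols. The authors deposited FPKM per gene, made with STAR 2.6.0c and Cuffdiff 2.2.1 on GRCh38, as the submitters' processing notes name them; strand setting and annotation release are not given in the sources used here. No further scaling was applied to the deposited FPKM. Of 58381 gene IDs, 58261 are in GENCODE 29, which gave positions, GC content and 3′ UTRs. The analysis used log2(FPKM + 0.5) of those 14228 genes that averaged 0.5 FPKM or more, so fold changes of low genes are understated. A single model of the 8 groups was fitted in limma 3.58.1 (R 4.3.3), with trend and robust moderation (16 residual degrees of freedom, 18 comparisons), after a check on simulated data.

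The members, lists and alternatives were chosen with earlier results of these data known. Named are the 8 genes, MIR186, ZRANB2, copies of the 8 genes, from each list up to 4 genes past the threshold between constructs (or the 2 of smallest p), and the 2 genes most like each member. List genes named for a change between weeks were chosen after their values were seen. The results of 1 further list are not reported here. Whether replicate numbers pair libraries was checked by correlating deviations from group means: every number exceeded 0.1 in 4 of 12 comparisons, miR-186 against vector clones at 0 nM in week 29, iAs in vector clones in week 29, and week in miR-186 clones at 100 nM and in vector clones at 0 nM. The fixed replicate block was fitted over all libraries, so it also joined groups whose numbers did not pass this check. Alternatives were pseudocounts of 0.1 and 1, no filter, a mean of 1 FPKM, median ratio scaling, a GC correction (spline of 5 degrees of freedom) without and with centring of 20 Mb windows, a replicate block, fixed or random, the block with the GC correction, only the groups compared, and leaving out each library.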

Additional observations from a re-analysis of the deposited data

How the results depend on the processing

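The number of listed genes past the threshold changed in 4 of 18 comparisons, always between 0 and 1. Between constructs at 0 nM in week 29 it was 1, AKAP12, with the replicate block (adjusted p = 0.0163), the block as a random term (0.0476), the block with the GC correction (0.0229) and only the groups compared (0.0444). AKAP12 passed the filter only through its miR-186 libraries, so these values are a description and carry no call. Between constructs at 0 nM in week 12 it was 1, YY1, with the replicate block (adjusted p = 0.0343), in a comparison where the numbers did not pass the pairing check. Between weeks in miR-186 clones at 100 nM it was 0 without a filter (FOXO1 adjusted p = 0.0826), with only the groups compared (0.131), and 0 to 0 when each library was left out. Between weeks in miR-186 clones at 0 nM it was 1 with the GC correction and window centring (FOXO1, adjusted p = 0.0333), the replicate block (XIAP, 0.0410), the block as a random term (XIAP, 0.0430) and the block with the GC correction (FOXO1, 0.0191). The replicate block changed no other call. The cause was not tested. Of 2718 single values under alternatives, 168 changed sign, none with a called value. With the 7mer or any 6mer admitted, 8 of 8 genes held a site against 5 with an 8mer. The 3 clones a construct, the unknown depth and the low level of AKAP12 limit these comparisons.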
